A study of Mus musculus with 6 samples.

Results

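The genes described here are 9 genes of megakaryocytes and platelets, Pf4, Ppbp, Thbs1, Itga2b, Itgb3, Gp1bb, Gp9, Treml1 and Plek, out of 46983 genes listed for the embryonic mouse heart. They were taken by gene symbol and were chosen by their levels in the same mutant and wild type hearts, with the comparison of those hearts already known. Their differences between the groups are therefore given as a description, without a test. RNA was sequenced from whole hearts at E13.5, 1 heart per library, of 3 embryos labelled mutant (replicates 1, 5 and 10) and 3 labelled wild type (replicates 2, 3 and 5), all of the strain C57BL/6 x DBA/2. Per the methods of the study, the mutants carried Tnnt2Cre and Wt1flox/flox, and the wild type embryos also carried Wt1flox/flox but had no Cre, so that both groups share the floxed Wt1 alleles. The comparison addresses what the loss of WT1, a zinc finger transcription factor, from the cells that activate the cardiac troponin T promoter changes in the heart. The Tnnt2 promoter drives Cre in cardiomyocytes, and the study also describes recombination in a part of the epicardium. It is not a driver for blood cells. Nothing in the labels says whether embryos of the 2 groups were littermates.

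Megakaryocytes are the large polyploid cells that shed platelets, and in the mouse embryo they arise first from the yolk sac and then from the fetal liver. They load alpha granules with chemokines and matrix proteins, among them PF4 (Cxcl4), PPBP (Cxcl7) and thrombospondin, and they place adhesion receptors on their surface. The main receptors are integrin alphaIIb beta3, encoded by Itga2b and Itgb3, which binds fibrinogen, and the GPIb-IX-V complex, which holds the products of Gp1bb and Gp9 and binds von Willebrand factor. Treml1 encodes a receptor of the alpha granule membrane that reaches the surface on activation, and Plek encodes pleckstrin, the major substrate of protein kinase C in platelets. GATA1, FLI1, RUNX1 and NF-E2 are transcription factors known to control megakaryocyte genes. Thbs1 and Itgb3 are also transcribed in endothelium, fibroblasts and other cells, and Plek in other blood cells, so these genes are less restricted to platelets than Ppbp, Gp9 or Treml1.

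The deposited counts came to between 44244665 and 56373393 per heart. Wt1 was counted at 39.97, 32.9 and 19.97 CPM (the counts of a gene scaled to a common library total by TMM) in wild type replicates 2, 3 and 5, and at 17.7, 33.3 and 35.7 CPM in mutant replicates 1, 5 and 10. The groups overlapped, and the difference was -0.10 ± 0.31 on the log2 scale (edgeR quasi-likelihood test, adjusted p = 0.99). A count over the whole gene does not separate the floxed part, so it does not check the labels, and hearts are named by their labels throughout. Wild type replicate 5 stood apart from the other hearts: its deviations from the mean of the 6 hearts were lower the longer the gene (Spearman rho = -0.556 over 11795 genes), while the other 5 hearts had values between -0.0622 and 0.464. Wild type replicate 3 held transcripts of hepatocytes, with 303 CPM of Alb (serum albumin) and 359 CPM of Afp (alpha-fetoprotein), against at most 14.9 CPM of either in the other hearts. Log2 fold changes of the 9 genes that move by over 1.5 times without either heart are given both ways beside the gene, as are lists whose direction turns.

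All 9 genes lie on autosomes, and their positions are those of GENCODE M21 (GRCm38). Pf4 (chr5:90772435-90773383) and Ppbp (chr5:90768518-90770063) are neighbours on the forward strand with 2371 bases between them. Thbs1 lies at chr2:118111876-118127133, Gp9 at chr6:87778072-87779768, Treml1 at chr17:48359916-48367176 and Itgb3 at chr11:104608000-104670476, all on the forward strand. Itga2b (chr11:102453297-102470122), Plek (chr11:16971206-17052381) and Gp1bb (chr16:18620317-18622403) are on the reverse strand. Gp1bb shares 91.14% of its exon bases with Sept5, a septin gene on the same strand that had 502 to 768 counts per heart, and 41.54% with Gm49601. Reads of Gp1bb and Sept5 cannot be told apart over the shared bases, and the level of Gp1bb is uncertain for that reason. The exons of Plek share 4.44% of their bases with Cnrip1 on the opposite strand, and the strand setting of the counting is not given in the sources used here.

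The RefSeq table of promoters (GRCm38.p6) had an entry for 7 of the 9 genes, without Thbs1 and Itgb3. The 250 bases before the start of transcription were searched on both strands for GATAA, the core letters of GATA sites, for AGGAAG and CCGGAA, letters of ETS sites such as those of FLI1, for TGTGGT (RUNX) and for TGAGTCA (NF-E2 and AP-1). The upstream sequences of the chemokine neighbours Pf4 and Ppbp are shown because Ppbp had the largest and Pf4 one of the larger differences among the 9 genes, and that of Gp9 because it held the letters of 3 of the factor families. Capitals mark GATAA and AGGAAG on either strand, and all 3 sequences are on the forward strand.
Pf4 (chr5:90772185-90772434): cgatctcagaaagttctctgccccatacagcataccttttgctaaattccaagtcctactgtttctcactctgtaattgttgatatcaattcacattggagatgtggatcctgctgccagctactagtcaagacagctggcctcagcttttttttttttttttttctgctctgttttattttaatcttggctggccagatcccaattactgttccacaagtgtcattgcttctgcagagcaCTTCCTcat
Ppbp (chr5:90768268-90768517): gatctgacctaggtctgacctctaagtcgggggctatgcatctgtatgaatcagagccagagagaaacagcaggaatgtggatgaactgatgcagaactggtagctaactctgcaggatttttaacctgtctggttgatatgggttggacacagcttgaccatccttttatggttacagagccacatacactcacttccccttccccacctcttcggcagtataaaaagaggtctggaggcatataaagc
Gp9 (chr6:87777820-87778069): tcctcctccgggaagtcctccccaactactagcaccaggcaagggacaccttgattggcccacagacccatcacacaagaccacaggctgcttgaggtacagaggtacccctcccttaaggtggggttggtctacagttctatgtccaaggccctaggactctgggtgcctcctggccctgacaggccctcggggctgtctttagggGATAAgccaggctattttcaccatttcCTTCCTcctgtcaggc
AGGAAG was found before Pf4, Itga2b and Gp9 (3 of 7 genes) and in 29.5% of 32851 promoters of the same length. GATAA was found before Gp9 and Plek (2 of 7), against 22.6% of all promoters, and TGTGGT before Gp9 (1 of 7), against 14.0%. CCGGAA (12% of all promoters) and TGAGTCA (4.46%) were not found before any of the 7 genes. In Gp9 the letters of GATA began 43 bases and those of ETS 16 bases before the start, while in Pf4 those of ETS began 9 bases before it. Itga2b held AGGAAG at 2 places, 125 and 43 bases before the RefSeq start, which lies 239 bases from the start in GENCODE. The RefSeq start of Plek lies 43663 bases from the GENCODE start. Such matches describe the letters only.

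All 9 genes had more than 3 counts in each heart and passed the filter on low counts, which left 17473 genes for the fit. Their fitted log2 fold changes, mutant minus wild type, were all positive, from 0.37 (Gp1bb) to 1.98 (Ppbp), with a median of 0.63, beside a median of -0.001 over all genes tested. In 7 of the 9 genes each mutant heart lay above each wild type heart, and over all genes this was so for 6.61%. These counts belong to the comparison that chose the genes, and nothing is read from them. By edgeR's quasi-likelihood test, 0 of the 17473 genes reached an adjusted p under 0.05 (0%), and 549 genes were higher and 453 lower in mutant hearts at an unadjusted p under 0.05. Whole hearts were sequenced, so a larger number of megakaryocytes or platelets and more RNA per cell cannot be told apart. Nothing separates RNA of platelets in the blood of the heart chambers from that of cells in the tissue.

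**Figure D1:**
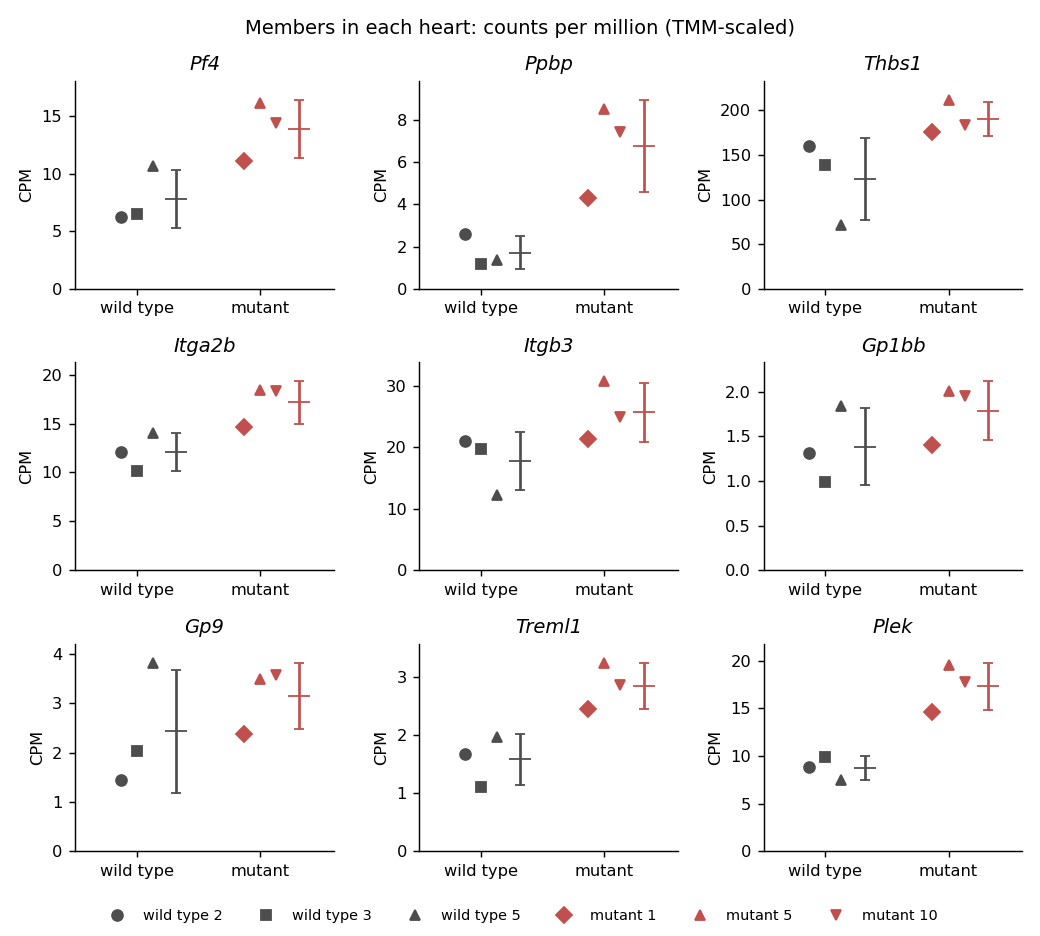
Level of each of the 9 genes (CPM, vertical axes from 0) in the 3 wild type hearts (grey) and the 3 mutant hearts (red), with the mean and its SD beside the points. Mutant replicate 5 was the highest heart for 8 of the genes, and only Gp1bb and Gp9 have a wild type heart above a mutant heart.

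Among the granule chemokines, Ppbp had the largest difference. Ppbp encodes the precursor of CXCL7, which attracts neutrophils through CXCR2. It was counted 147, 67 and 60 times in replicates 2, 3 and 5 of the wild type (2.61, 1.17 and 1.36 CPM) and 225, 448 and 374 times in mutant replicates 1, 5 and 10 (4.33, 8.55 and 7.43 CPM). The lowest mutant heart was 1.66 times the highest wild type heart. In the fit the mutant hearts were 3.94-fold higher, a log2 fold change of 1.98 ± 0.37 (SE, n = 3 hearts per group), which lay between 1.76 and 2.42 when each heart was left out in turn.

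Pf4 encodes platelet factor 4, a chemokine that binds heparin, and it is widely used as a marker of the megakaryocyte lineage. Its level was 6.21, 6.50 and 10.7 CPM in wild type replicates 2, 3 and 5 and 11.1, 16.1 and 14.4 CPM in mutant replicates 1, 5 and 10. The groups did not overlap, but wild type replicate 5 reached almost the level of mutant replicate 1, with a ratio of 1.04 between the lowest mutant and the highest wild type heart. The log2 fold change was 0.84 ± 0.24, and 1.13 without wild type replicate 5. With upper quartile scaling wild type replicate 5 (11.3 CPM) lay above mutant replicate 1 (11.1 CPM). Cxcl5, the chemokine gene on the other side of Ppbp, had 0 counts in each wild type heart and 2, 9 and 7 counts in mutant replicates 1, 5 and 10, and was too low to be tested. Cxcl3 and Cxcl15, on the other side of Pf4, had at most 4 counts in any heart.

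Thbs1 encodes thrombospondin 1, a matrix glycoprotein of alpha granules that many other cells also secrete. Wild type replicates 2, 3 and 5 had 159.9, 138 and 71.5 CPM, and mutant replicates 1, 5 and 10 had 176, 212 and 183 CPM. The mutant hearts lay closer together than the wild type hearts, in which replicate 5 was the lowest. The log2 fold change was 0.63 ± 0.26, and it dropped to 0.35 without wild type replicate 5. With the trend of each heart with gene length removed, wild type replicate 5 came to 81.7 and the log2 fold change to 0.60.

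Itga2b encodes the alphaIIb chain, the subunit of the fibrinogen receptor that is restricted to the megakaryocyte lineage and early blood progenitors. Its level was 12.1, 10.1 and 14.0 CPM in wild type replicates 2, 3 and 5 and 14.7, 18.4 and 18.4 CPM in mutant replicates 1, 5 and 10. The log2 fold change was 0.51 ± 0.16, and the gap between the lowest mutant and the highest wild type heart was small, with a ratio of 1.05. With upper quartile scaling the groups overlapped, at 14.8 CPM in wild type replicate 5 and 14.6 CPM in mutant replicate 1. Itgb3 encodes the beta3 chain, which also pairs with integrin alphaV outside platelets. Its level was 21.0, 19.8 and 12.3 CPM in wild type against 21.3, 30.8 and 24.9 CPM in mutant hearts, in the same order. Here too mutant replicate 1 was barely above the highest wild type heart (ratio 1.01). The log2 fold change was 0.53 ± 0.22, and 0.33 without wild type replicate 5. Itgav, the gene of the other partner of beta3, named here after its values were seen, was measured at 79.8 ± 15.9 CPM in wild type against 99.8 ± 17.0 CPM in mutant hearts (SD, n = 3 each; log2 fold change 0.32 ± 0.18, edgeR adjusted p = 0.939).

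The GPIb-IX-V genes were low and spread more. Gp9 encodes glycoprotein IX, which is needed for the complex to reach the surface. It had 1.44, 2.03 and 3.82 CPM in wild type replicates 2, 3 and 5 and 2.37, 3.49 and 3.58 CPM in mutant replicates 1, 5 and 10. The highest heart was a wild type heart, and the groups overlapped. The log2 fold change of 0.38 ± 0.37 was no larger than its error, and it was 0.11 with wild type replicate 2 left out and 0.86 with wild type replicate 5 left out.

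Gp1bb encodes the beta chain of glycoprotein Ib. It had 1.31, 0.99 and 1.84 CPM in wild type against 1.40, 2.00 and 1.95 CPM in mutant hearts, in the same order of replicates, again with overlap. Its log2 fold change was 0.37 ± 0.31, with the uncertainty from Sept5 given above, and it was 0.63 with wild type replicate 5 left out and 0.19 with wild type replicate 3 left out. The other 2 genes of the complex, named here after their values were seen, were Gp1ba, which encodes the chain that binds von Willebrand factor, and Gp5. Gp1ba had a log2 fold change of 0.59 ± 0.31 and Gp5 of 0.99 ± 0.32 (edgeR adjusted p = 0.939 and 0.688). Gp5 did not overlap between the groups, at 0.943 ± 0.289 CPM in wild type against 1.88 ± 0.31 CPM in mutant hearts (SD, n = 3 each), while Gp1ba did.

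Treml1 had 1.67, 1.11 and 1.98 CPM in wild type replicates 2, 3 and 5 and 2.44, 3.24 and 2.86 CPM in mutant replicates 1, 5 and 10. The groups were separate, and the log2 fold change was 0.85 ± 0.27. Plek had 8.88, 9.89 and 7.47 CPM in wild type against 14.6, 19.5 and 17.8 CPM in mutant hearts, in the same order. Its lowest mutant heart was 1.48 times its highest wild type heart, and the log2 fold change of 0.98 ± 0.16 changed little when each heart was left out, between 0.88 and 1.09. Macrophages and other leukocytes also transcribe Plek, and their markers are given further on.

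**Figure D2:**
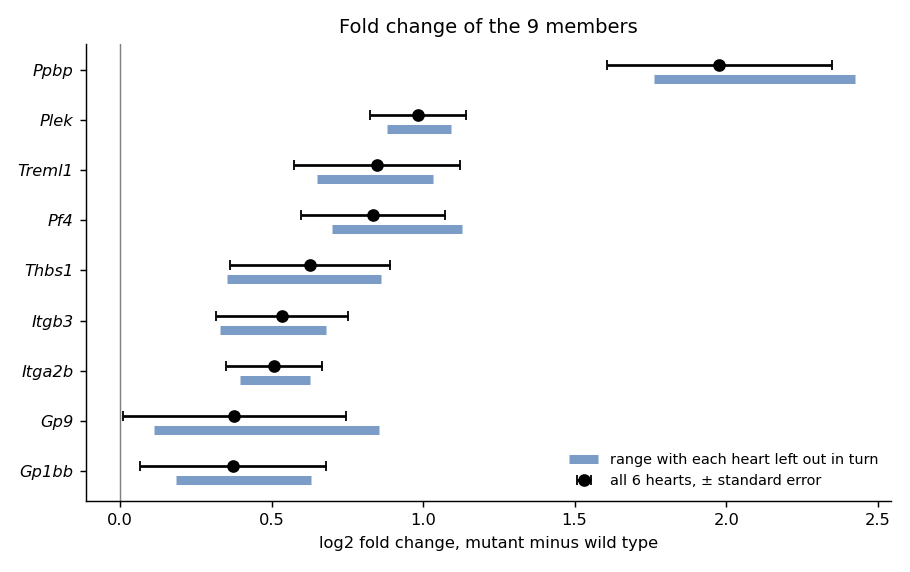
Log2 fold change of the 9 genes, mutant minus wild type (horizontal axis), with the standard error over 6 hearts (black) and the range when each heart is left out in turn (blue). Every range lies above 0, from 1.76 to 2.42 for Ppbp and from 0.11 to 0.86 for Gp9. The genes were chosen on this comparison, so nothing is read from the signs.

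Per length, the order of the genes depended on the length used. In the deposited FPKM (fragments relative to gene length and library total), Thbs1 was highest in wild type hearts at 38.4 ± 14.7 (SD, n = 3), followed by Pf4 at 17.3 ± 5.3 and Itga2b at 11.03 ± 1.64 FPKM. These neighbours lay apart by more than their SD, except that the lowest Thbs1 value, 21.9 FPKM, was below the highest Pf4 value, 23.4 FPKM. Itgb3 (3.53 ± 0.98), Plek (3.18 ± 0.48) and Gp9 (2.77 ± 1.38 FPKM) did not differ beyond their spread, nor did Ppbp (1.598 ± 0.738), Treml1 (1.281 ± 0.339) and Gp1bb (1.12 ± 0.33 FPKM). In mutant hearts Ppbp, at 6.17 ± 1.95 FPKM, stood beside Plek (6.16 ± 0.85) and Itgb3 (5.001 ± 0.952) and above Gp9 (3.52 ± 0.68 FPKM), although its mean was below that of Gp9 in wild type hearts. The highest mean FPKM, of Thbs1, exceeded that of 90.2% of the 26831 genes with a count, and the lowest, of Gp1bb, that of 51.3%. The deposited FPKM of Itga2b used a length of 1104 bases, while its exons in GENCODE cover 5454 bases. Per kilobase of those exons, Itga2b ranked 7 among the 9 genes and not 3, with 2.68 CPM per kilobase over the 6 hearts, below Plek (2.91) and above Treml1 (1.58). On exon lengths from GENCODE, Plek also fell from rank 4 to 6, while Ppbp rose from 6 to 3, Gp9 from 7 to 5 and Itgb3 from 5 to 4. The FPKM comparisons of these genes depend on the deposited lengths in the same way.

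The 9 genes did not vary among the hearts in 1 way. Relative to each gene's own mean over the 6 hearts, their mean level on the log2 CPM scale was -0.33, -0.55 and -0.34 in wild type replicates 2, 3 and 5 and 0.12, 0.62 and 0.48 in mutant replicates 1, 5 and 10. Mutant replicate 1 was the lowest mutant heart for all 9 genes. Within the wild type group, replicate 5 was the highest heart for Pf4, Itga2b, Gp1bb, Gp9 and Treml1, and the lowest for Plek, Thbs1 and Itgb3. The exons of the latter 3 genes cover 4486 to 6073 bases, and those of the former 5 cover 721 to 2087 bases apart from Itga2b with 5454. The correction for gene length used the lengths of the deposited FPKM instead. In those lengths the latter 3 genes had 2783 to 5080 bases and the former 5, with Itga2b, had 453 to 1248. Replicate 5 is the heart with the negative trend over gene length. After that trend was removed, Pf4 in wild type replicate 5 was 7.81, beside 6.96 and 7.03 in replicates 2 and 3, and its log2 fold change was 1.01, while the other genes kept positive log2 fold changes of 0.39 (Gp1bb) to 1.98 (Ppbp).

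**Figure D3:**
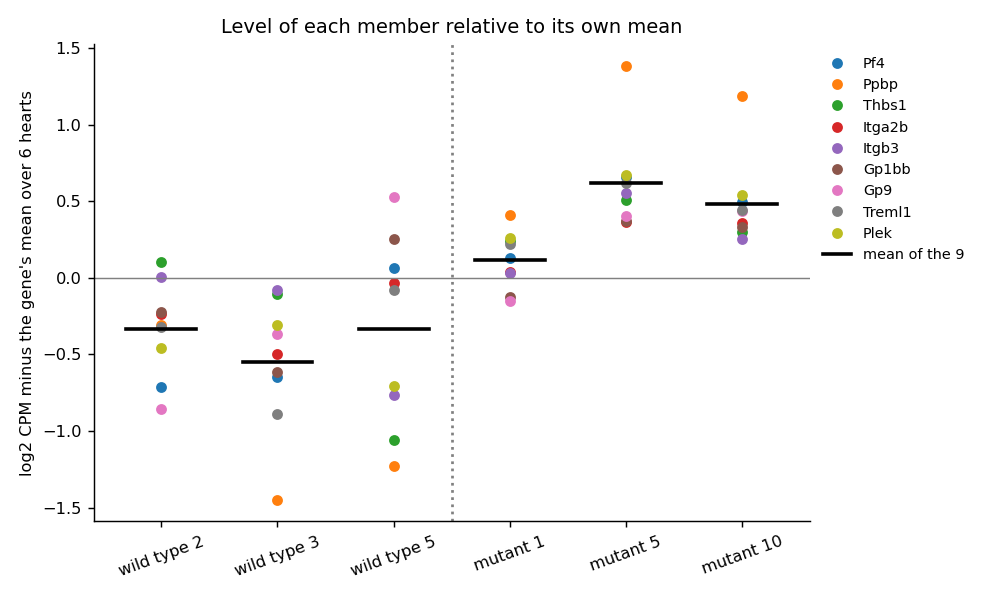
Level of each of the 9 genes relative to its own mean over the 6 hearts (vertical axis, log2 CPM) by heart, with the mean of the 9 as a black bar. The bars stand at -0.33 to -0.55 in wild type hearts and at 0.12 to 0.62 in mutant hearts, and the points of wild type replicate 5 spread most widely.

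The 8 other genes whose profile over the 6 hearts was most like the mean profile of the 9, by the root mean square (RMS) of the difference of centred log2 CPM, were Tmtc1 (0.101), Ptpn3 (0.112), Tlr4 (0.119), Sgms2 (0.132), Lox (0.140), Gm5796 (0.142), Lrmp (0.149) and Fchsd1 (0.150). The median over the 14147 genes compared was 0.466, and the 9 genes themselves ranged from 0.177 (Itga2b) to 0.680 (Ppbp). Tlr4, the receptor for lipopolysaccharide, had 5.79, 5.23 and 6.68 CPM in wild type against 8.02, 9.81 and 10.2 CPM in mutant hearts. Lox, an enzyme that crosslinks collagen, had 55.5, 60.5 and 54.9 CPM in wild type against 70.7, 107.5 and 98.0 CPM in mutant hearts. None of the 8 is in the lists of megakaryocyte and platelet genes used here, and the likeness rests on 6 hearts.

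A further 103 genes of megakaryocytes and platelets, in 5 lists without the 9 genes, were all in the table, and 101 could be tested. Of these, 80 were higher and 21 lower in mutant hearts, with a median log2 fold change of 0.16. In edgeR's quasi-likelihood test 0 reached an adjusted p under 0.05. At an unadjusted p under 0.05, 22 were higher and 0 lower, beside 3.14% of all genes tested that were higher at this level and 2.59% that were lower. The same shares stand beside such counts of each list below. The groups did not overlap in 24 genes that were higher and 1 that was lower. Over all genes, 6.61% were higher without overlap, and 802 of 17473 were lower without overlap. In DESeq2, 7 genes were higher at an adjusted p under 0.05 and 0 lower, beside 0.405% of the 19282 genes with an adjusted p that were higher: F2rl2, Srgn, Clu, Tubb1, Lcp2, Alox12 and Stat3. Both voom and the trend fits of limma called 0 over all genes, so their 0 for the list says nothing about it. With wild type replicate 5 left out, 31 of them were higher at an unadjusted p under 0.05 (beside 6.54% of all genes), with wild type replicate 3 left out 20 (beside 2.55%), and with mutant replicate 5 left out 14 (beside 1.6%).

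Among 28 platelet surface receptors, 25 were higher and 3 lower, 6 of them higher and 0 lower at an unadjusted p under 0.05, with a median log2 fold change of 0.25. F2rl2 encodes PAR3, a thrombin receptor of mouse platelets. It had 0.408, 0.487 and 0.114 CPM in wild type replicates 2, 3 and 5 and 1.54, 1.87 and 1.23 CPM in mutant replicates 1, 5 and 10, a log2 fold change of 2.17 ± 0.48 (edgeR adjusted p = 0.365, DESeq2 adjusted p = 0.00321). Gp6, the collagen receptor, had 0.231, 0.139 and 0.386 CPM in wild type against 0.750, 1.03 and 0.835 CPM in mutant hearts, a log2 fold change of 1.80 ± 0.44 (edgeR adjusted p = 0.441, DESeq2 adjusted p = 0.0684). Both receptors were low, with at most 1.87 CPM in any heart, and their groups did not overlap. The receptors with the highest FPKM are expressed in many tissues: the integrin chains Itgb1 and Itga6 had log2 fold changes of 0.16 ± 0.13 and 0.10 ± 0.19, and Cd63, a tetraspanin of granule membranes, of 0.12 ± 0.14 (edgeR adjusted p = 0.985 for each).

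Of the 18 granule and secreted proteins 17 could be tested, without Cxcl5. There were 14 higher and 3 lower, 4 and 0 at an unadjusted p under 0.05, with a median of 0.15. Srgn encodes serglycin, the proteoglycan that holds PF4 in granules, and it is made by most blood cells. It had 2.04, 2.92 and 2.89 CPM in wild type replicates 2, 3 and 5 and 4.58, 5.23 and 7.59 CPM in mutant replicates 1, 5 and 10, a log2 fold change of 1.15 ± 0.25 (edgeR adjusted p = 0.364, DESeq2 adjusted p = 0.0052). Clu (clusterin) had a log2 fold change of 0.61 ± 0.13 (edgeR adjusted p = 0.35, DESeq2 adjusted p = 0.00909), from 131 to 166 CPM in wild type to 203 to 241 CPM in mutant hearts. Clu is also transcribed by many other cells of the heart, and their part in it was not tested. Sparc, an abundant matrix protein, differed by 0.32 ± 0.13 and Serpine2, a thrombin inhibitor, by 0.04 ± 0.10 (edgeR adjusted p = 0.86 and 0.99).

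The 28 genes of platelet signalling and cytoskeleton had the highest median of the 5 lists, 0.40, with 23 higher and 5 lower, and 10 higher and 0 lower at an unadjusted p under 0.05. Tubb1 encodes beta1 tubulin, the tubulin of the platelet marginal band. It had 1.67, 2.00 and 1.73 CPM in wild type replicates 2, 3 and 5 and 3.79, 6.05 and 3.70 CPM in mutant replicates 1, 5 and 10, a log2 fold change of 1.32 ± 0.25 (edgeR adjusted p = 0.273, DESeq2 adjusted p = 0.000775). Alox12, the platelet 12-lipoxygenase, had 1.94, 2.66 and 1.93 CPM in wild type against 3.71, 5.15 and 4.97 CPM in mutant hearts, a log2 fold change of 1.08 ± 0.23 (edgeR adjusted p = 0.351, DESeq2 adjusted p = 0.0055). Each mutant heart was above each wild type heart for both genes. Lcp2, Vav1 and Bin2, named here after their values were seen, differed by 0.96 ± 0.23, 0.77 ± 0.22 and 0.69 ± 0.19. Syk, Coro1a, Was and Apbb1ip, named in the same way, differed by 0.12 ± 0.13, 0.26 ± 0.12, 0.36 ± 0.28 and -0.16 ± 0.32. The part of macrophages and other leukocytes in the levels of this list was not tested. The abundant cytoskeletal genes of the list were close to 0: Flna (filamin A) at -0.02 ± 0.15, Tln1 (talin 1) at 0.16 ± 0.20 and Rap1b, a small GTPase, at 0.15 ± 0.12.

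The 19 megakaryocyte transcription factors were split, with 10 higher and 9 lower, a median of 0.01 and 0 in either direction at an unadjusted p under 0.05. With wild type replicate 5 left out, 7 were higher and 12 lower, with a median of -0.07. Myb, which is expressed in blood progenitors, had the largest difference of the named factors, at 1.47, 1.34 and 0.977 CPM in wild type against 0.866, 0.935 and 0.835 CPM in mutant hearts, a log2 fold change of -0.53 ± 0.28 (edgeR adjusted p = 0.939). Mafk, a small MAF partner of NF-E2, differed by 0.21 ± 0.10, the cofactor Ldb1 by -0.17 ± 0.12, Cbfb, the partner of RUNX1, by 0.08 ± 0.11, and Zfpm1 (FOG1, the partner of GATA1) by -0.06 ± 0.18. Gata1, Fli1, Runx1 and Nfe2, named here after their values were seen, differed by -0.15 ± 0.34, 0.12 ± 0.12, 0.25 ± 0.35 and -0.11 ± 0.25. Several of these factors are shared with red cells, endothelium or most tissues. Whether the factors differ from the receptors or granule genes as a list was not tested.

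Of the 10 genes of the thrombopoietin system 9 could be tested, since Thpo, the ligand, was at most 0.191 CPM. There were 8 higher and 1 lower, with a median of 0.12, and 2 were higher and 0 lower at an unadjusted p under 0.05. Stat3, a signal transducer of many cytokines, differed by 0.63 ± 0.14 (edgeR adjusted p = 0.395, DESeq2 adjusted p = 0.0258). Cxcl12, a chemokine that retains megakaryocytes in their niche, and Sh2b3, an adaptor that restrains cytokine signalling, differed by 0.18 ± 0.16 and 0.13 ± 0.12.

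**Figure D4:**
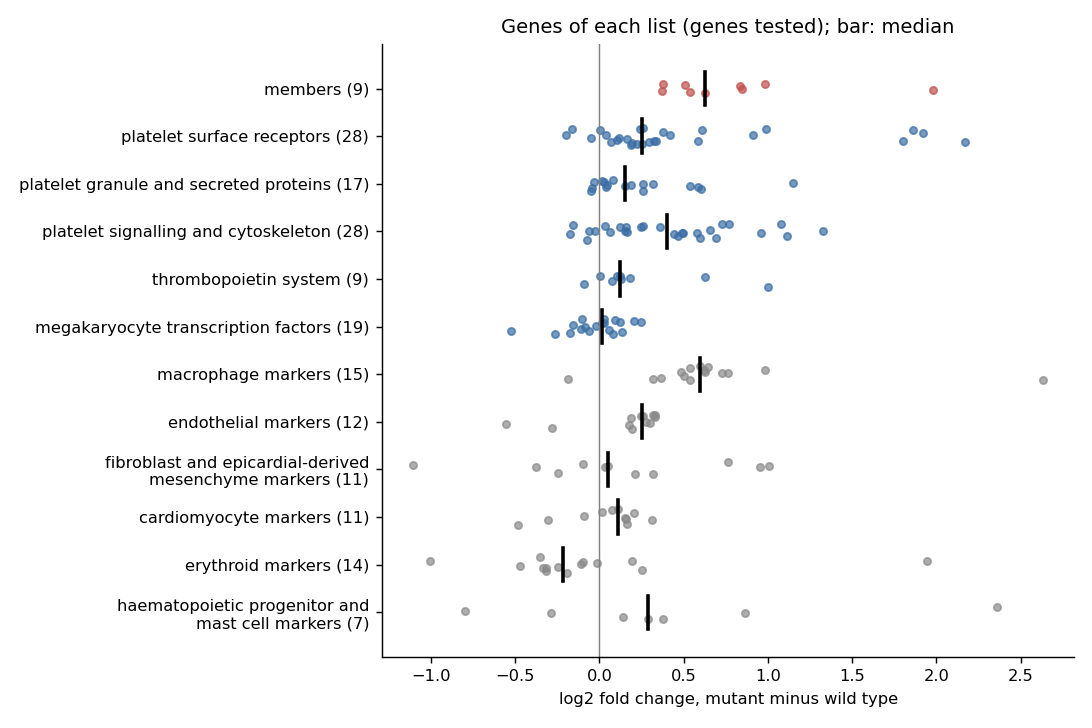
Log2 fold change, mutant minus wild type (horizontal axis), of each gene tested in the 9 genes (red), the 5 other lists of megakaryocyte and platelet genes (blue) and 6 lists of cell type markers (grey), with the median as a bar and the number of genes tested in brackets. The medians of the blue lists run from 0.01 for the transcription factors to 0.40 for signalling and cytoskeleton, and that of the macrophage markers is 0.60. Hepatocyte markers are not drawn.

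Markers of macrophages were also mostly higher in mutant hearts. Of 15 markers tested (of 16 listed), 14 were higher and 1 lower, with a median of 0.60. At an unadjusted p under 0.05, 12 were higher and 0 lower, beside 3.14% of all genes that were higher at this level, and 7 were higher with wild type replicate 3 left out (beside 2.55%). Their summed level was 113 to 140 CPM in wild type against 178 to 198 CPM in mutant hearts. C1qa and C1qb, subunits of complement C1q, differed by 0.98 ± 0.18 and 0.76 ± 0.16 (edgeR adjusted p = 0.259 and 0.301, DESeq2 adjusted p = 0.000301 and 0.00503). DESeq2 called 3 markers higher and 0 lower, beside 0.405% of all genes with an adjusted p that were higher. Besides C1qa and C1qb this was Timd4, at most 2.65 CPM in any heart. It differed by 2.63 ± 0.46 (edgeR adjusted p = 0.213, DESeq2 adjusted p = 2.53e-05). The part of macrophages in the levels of Pf4, Plek, Srgn, Lcp2 and the other genes of the megakaryocyte and platelet lists was not tested. Markers of the red cell lineage, which fill the blood in the heart, had 3 higher and 11 lower of 14 tested and a median of -0.22. With wild type replicate 5 left out this turned to 7 higher and 7 lower, with a median of 0.16. Their summed level overlapped widely, from 15200 to 39300 CPM in wild type against from 12500 to 42700 CPM in mutant hearts. Hbb-y and Hba-a1, globin genes, differed by -0.11 ± 0.46 and 0.25 ± 0.63. Wild type replicate 5 and mutant replicate 10 had the most Hbb-y (19941 and 20628 CPM, against at most 9337 CPM in the others). Other red cell markers differed from it: Hbb-bh1 was highest in wild type replicate 2 (574 CPM) and Klf1 in wild type replicate 3 (11.1 CPM). Of the platelet genes described first, Gp9 was highest in the same hearts as Hbb-y (3.82 and 3.58 CPM), and 8 were highest in mutant replicate 5. Whether the red cell markers follow the platelet genes over the hearts was not tested.

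Hepatocyte markers, listed because megakaryocytes form in the fetal liver, were lower in all 10 genes tested of 13, with 6 lower at an unadjusted p under 0.05, beside 2.59% of all genes that were lower at this level. With wild type replicate 3 left out, 6 were higher and 4 lower of 10, with a median log2 fold change of 0.03 and 0 in either direction at an unadjusted p under 0.05 in edgeR. Their summed level was 4.53 to 838 CPM in wild type against 3.99 to 25.0 CPM in mutant hearts, with the highest value in wild type replicate 3. That heart was the lowest of its group for 4 of the 9 genes, the highest for Plek and in between for the others. Without that heart, the log2 fold changes of the 9 genes were between 0.19 (Gp1bb) and 1.76 (Ppbp). The part of liver cells in the levels of the 9 genes was not tested. Progenitor and mast cell markers had 5 higher and 2 lower of 7 tested of 12, with 1 gene at 0 in all hearts, a median of 0.29 and a summed level of 110 to 140 CPM in wild type against 137 to 146 CPM in mutant hearts. Cd34 and Kit differed by 0.14 ± 0.13 and 0.29 ± 0.15. At an unadjusted p under 0.05, 1 of these markers was higher and 0 lower. Endothelial markers had 10 higher and 2 lower of 12, a median of 0.25 and a summed level of 1040 to 1390 CPM in wild type against 1260 to 1540 CPM in mutant hearts. Pecam1 and Egfl7 differed by 0.26 ± 0.15 and -0.28 ± 0.30. At an unadjusted p under 0.05, 1 endothelial marker was higher and 0 lower. With wild type replicate 2 left out, 6 were higher and 0 lower (beside 3.05% of all genes that were higher). Fibroblast and mesenchyme markers had 7 higher and 4 lower of 11, with a median of 0.05 and a summed level of 3280 to 4330 CPM in wild type against 4240 to 5660 CPM in mutant hearts. At an unadjusted p under 0.05, 3 were higher and 1 lower, beside 3.14% and 2.59% of all genes. Over the 19282 genes with an adjusted p in DESeq2, 0.405% were called higher and 55 genes lower. Vim differed by 0.03 ± 0.12 and Col3a1 by 0.21 ± 0.17, but DESeq2 called 3 genes of the list, named here after their values were seen. Of these, Col1a1 (0.95 ± 0.29, DESeq2 adjusted p = 0.0498) and Thy1 (1.01 ± 0.24, DESeq2 adjusted p = 0.0185) were higher, and Tcf21, a transcription factor of epicardium and fibroblasts, was lower (-1.10 ± 0.15, DESeq2 adjusted p = 1.6e-07), while edgeR gave adjusted p = 0.652, 0.413 and 0.113. Cardiomyocyte markers, among them Actc1 (0.08 ± 0.14) and Myl2 (0.21 ± 0.14), had 8 higher and 3 lower of 11 and a median of 0.11. Their sum was 23500 to 27800 CPM in wild type against 26400 to 29200 CPM in mutant hearts. At an unadjusted p under 0.05, 0 were higher and 1 was lower in edgeR (Myl7, an atrial myosin light chain, -0.48 ± 0.20, named after its values were seen). With wild type replicate 5 left out, 4 were higher and 7 lower, with a median of -0.02. The part of endothelium, fibroblasts and other cells in the levels of Thbs1 and Itgb3 was not tested.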

How the data were processed

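RNA of 6 whole E13.5 hearts was analysed, 3 labelled mutant and 3 labelled wild type. According to the study's methods, reads were trimmed by the authors, mapped to mm10 by STAR, and those mapped uniquely were counted per gene by featureCounts on annotation release M19, while the submitters' processing notes name HTSeq. The deposited count of each gene is not normalized. The deposited FPKM equals the count over a gene length that is the same in all hearts and over the heart's total (largest relative deviation 7.09e-14). A second copy of each table held the same values and was not used, nor was a table of group means.

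The counts were fitted with edgeR 4.0.16 (R 4.3.3; TMM, filterByExpr minimum count 10, minimum total 15, quasi-likelihood, two-sided, Benjamini-Hochberg over 17473 genes, adjusted p under 0.05). The common biological coefficient of variation was 0.209. CPM are counts scaled to a common library total with the TMM factors. Alternatives were DESeq2 1.42.0, limma 3.58.1 (voom on counts, and a trend fit on log2 FPKM after adding 1 or 0.1), other scalings and filters, an adjusted p under 0.1, removal of gene length trends from each heart by local regression (span 0.5) and each heart left out. The fits were tested on simulated data. Hearts are separate embryos, and p-values measure the spread between them. Without molecular identifiers, counts are not of independent molecules.

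The members, the gene lists and the tests were chosen with earlier results of these data known. Genes named are the 9 members, of each further list the 3 with the highest mean FPKM and the 2 with the smallest p, of each marker list the 2 with the highest mean FPKM, and the 8 genes most like the members in profile with a mean of at least 1 CPM. Other genes were named after their values were seen, or as neighbours, overlapping genes or genes called by DESeq2. Of the erythroid markers, Ahsp was not matched in the table. A gene that the rule would name is not reported here.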

Additional observations from a re-analysis of the deposited data

How the results depend on the processing

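Over all genes, edgeR's quasi-likelihood test called 0 genes, DESeq2 called 133, edgeR without a filter on low counts 34, the fit with gene length correction 6, and edgeR at an adjusted p under 0.1 also 6. Limma voom, both limma trend fits and the other scalings called 0 over all genes. With each heart left out in turn the number ran from 0 to 44, and the 44 were called without wild type replicate 5. Of the other megakaryocyte and platelet genes, DESeq2 called 7 and each other setting 0. The number of them higher at an unadjusted p under 0.05 was 22, and 14 to 31 with each heart left out. The settings for this count, and the lists with each heart left out, were added after the data were seen. The median log2 fold change of the 9 genes was 0.63, and 0.53 to 0.86 with each heart left out, with 0.86 without wild type replicate 5. All 135 alternative fits of the 9 genes gave positive log2 fold changes, and 133 of these moved by less than 1 SD between replicates. These fits reuse the hearts on which the genes were chosen, so nothing is read from their signs. The SD is also a wide measure for some genes, since for Gp9 it was 0.55 beside a log2 fold change of 0.38. The number of the 9 genes whose groups do not overlap was 7, 5 with upper quartile scaling and 9 without wild type replicate 5. No paired analysis was possible because nothing in the labels pairs embryos of the 2 groups. Of the low genes, Gp1bb, Gp9 and Treml1 rest on 57 to 183 counts per heart.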
